A study of Mus musculus with 6 samples.

Results

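The genes described here repair or bypass the DNA lesions that platinum drugs leave, and they were chosen by name from a list of 47 repair and checkpoint genes, all of which had a row in a table of 55401 mouse genes. Of these, 34 reached 0.5 FPKM (fragments per kilobase of transcript, scaled to the mapped depth) in at least 3 of the 6 libraries and were tested among 12084 genes, and 13 were too low to be tested. The cells were bone-marrow-derived macrophages, grown from mouse marrow for 7 days with medium conditioned by L929 cells, and their total RNA was sequenced after removal of ribosomal RNA. In 3 libraries (L-OHP+FUC) the cells had received 250 µg/ml fucoidan, a sulfated seaweed polysaccharide, for 12 h and then 5 µM L-OHP (oxaliplatin) for 12 h. In the other 3 (L-OHP) they had received the same dose of L-OHP for 12 h without fucoidan. Both groups were thus drug-exposed, and cells without L-OHP were not analysed here. The labels state no strain, age or sex, and do not say whether replicates came from separate mice or cultures, so the p-values reflect only how these samples varied, which may be technical.

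Oxaliplatin binds purine bases and forms mostly crosslinks within a strand, with fewer between the strands. Nucleotide excision repair cuts out the lesions within a strand, the Fanconi pathway unhooks those between strands, translesion polymerases copy past a lesion, and recombination or end joining mends the breaks that follow. The kinases ATM and ATR report the damage to the checkpoint. Several of these pathways act mainly while DNA is being copied.

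The implied depth was 15.6 to 18.6 M fragments per library, read from the steps between low values. Only 30.5% to 36.0% of low values were whole numbers of such steps within 0.03, so no counts could be recovered and the depth behind a single gene is unknown. Macrophage markers were present, with 11 of 12 at a mean of at least 1 FPKM, and summed to 14735 to 15517 FPKM in L-OHP+FUC and 13836 to 19230 FPKM in L-OHP. T cell markers summed to 2.36 to 2.76 FPKM in L-OHP+FUC and 3.93 to 5.79 FPKM in L-OHP, with 1 of 8 at a mean of at least 1 FPKM and Cd3e, Cd3d, Cd3g and Trbc2 listed at 0 in every library. B cell markers summed to 10.5 to 13.7 FPKM in L-OHP+FUC and 17.4 to 26.1 FPKM in L-OHP, with 1 of 6 at that mean. Neutrophil markers summed to 14.7 to 17.6 FPKM in L-OHP+FUC and 8.07 to 12.8 FPKM in L-OHP, with 3 of 10 at that mean and Ly6g and Retnlg listed at 0. The part of these cell types in the results was not tested, and in bulk RNA fewer cells of a type cannot be told apart from less RNA per cell. Genes at 1 FPKM or more numbered 9841 to 10188 per library in L-OHP+FUC and 10711 to 10813 in L-OHP.

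Fucoidan before the drug went with lower RNA of the recombination genes Rad50 and Nbn and the single-strand break gene Parp2, among others. The excision repair gene Ddb1 had higher RNA. The checkpoint kinase Atm was lower too, but its difference no longer passed after correction for GC content and transcript length. Of the 34 tested members, 1 was higher and 11 were lower in L-OHP+FUC than in L-OHP (limma, adjusted p under 0.05 over all tested genes), and 22 did not pass. Among all tested genes 7.67% were higher and 19.3% were lower, so 2.94% and 32.4% of the members stand against those shares. The members were chosen with earlier results of these data known, so these shares are a description. The 12 members that passed were Ddb1 on the higher side and Rad50, Nbn, Xrcc3, Parp2, Ercc6, Pms2, Msh6, Msh3, Rev3l, Rev1 and Atm on the lower side. The groups did not overlap for 2 members that were higher (5.88%) and 17 that were lower (50%), against 16.1% and 30.9% of all tested genes. The median log2 fold change, L-OHP+FUC over L-OHP on log2(FPKM + 1), was −0.31 over the tested members and −0.10 over all tested genes. The split over all genes, 927 higher and 2335 lower as deposited, depended on the scaling. It became 1581 and 1680 after median ratio rescaling, 1565 and 1359 after quantile normalization and 1390 and 1437 after correction for GC content and transcript length. Over the members these scalings gave 2 higher and 8 lower, 3 higher and 6 lower, and 1 higher and 4 lower. The shares over all genes were 13.1% higher and 13.9% lower after median ratio rescaling, 13.0% and 11.2% after quantile normalization and 11.5% and 11.9% after the GC and length correction. The median over the members was then −0.24, −0.07 and −0.16, while the median over all genes was −0.01, 0.03 and 0.01. Fan1, Msh3 and Blm reached the expression filter through L-OHP libraries alone, so their lower values in L-OHP+FUC were in part a condition of being tested.

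**Figure D1:**
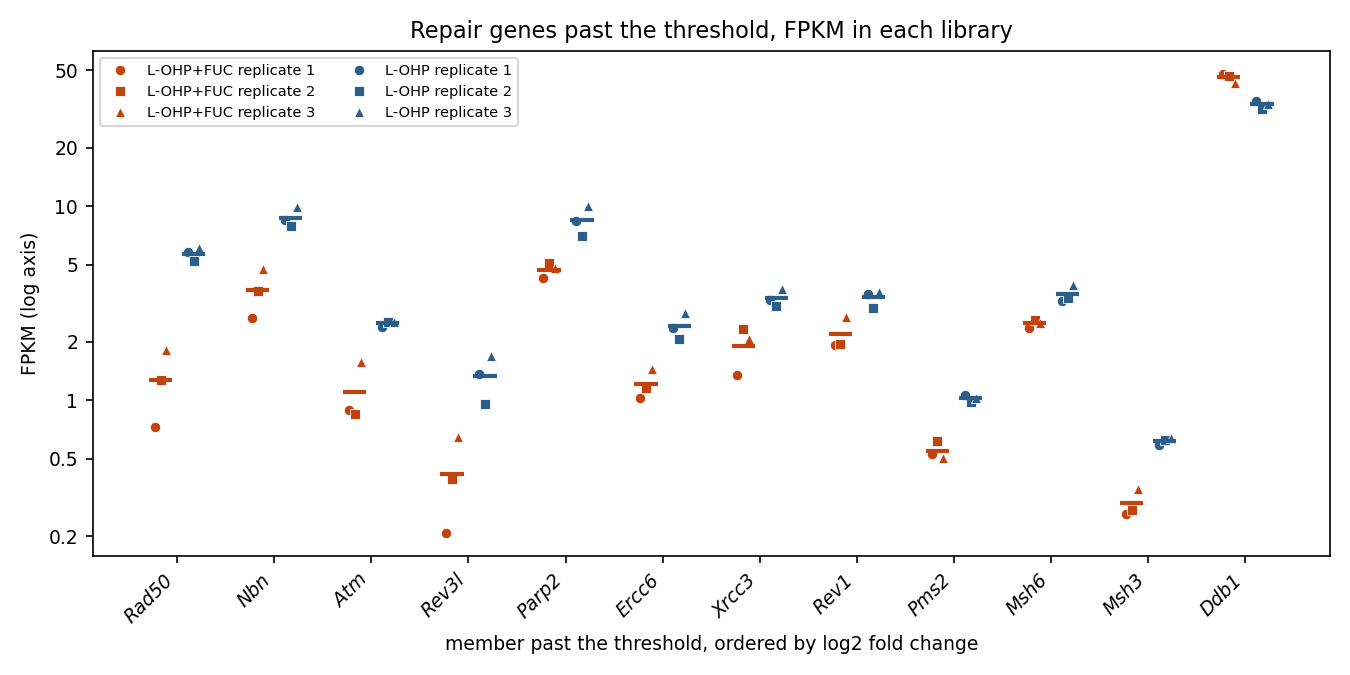
FPKM (log axis) in each library of the 12 members past the threshold, ordered by log2 fold change, with L-OHP+FUC in orange left of L-OHP in blue and a bar at each group's mean. In each of the 12 the groups do not overlap, and Ddb1 is the one member with L-OHP+FUC above L-OHP.

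The promoter stretches of 4 of these 12 genes, picked by name, are shown. All 4 RNAs were lower in L-OHP+FUC and a stretch free of exon bases lies before each start. Whether the other called members have such a stretch is not reported. RefSeq's table of GRCm38.p6 had an entry for 39 of the 47 members and for 9 of the 12 that passed. Each stretch is 5′ to 3′ on the gene's strand, ends at or within 75 bases of the RefSeq start and holds no annotated exon bases. Capitals mark the motif letters that were searched on both strands, which were CCAAT for the CCAAT box, GGGCGG for the GC box, TGACGT for the core of a cAMP response element and CACGTG for the E-box. A match on the other strand appears as the reverse complement. The stretches lie at chr14:50807768-50807840 (Parp2, + strand), chr12:111813880-111814029 (Xrcc3, − strand), chr9:53536741-53536890 (Atm, − strand) and chr5:143909848-143909963 (Pms2, + strand).
Parp2: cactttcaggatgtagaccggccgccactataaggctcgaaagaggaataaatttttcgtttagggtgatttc
Xrcc3: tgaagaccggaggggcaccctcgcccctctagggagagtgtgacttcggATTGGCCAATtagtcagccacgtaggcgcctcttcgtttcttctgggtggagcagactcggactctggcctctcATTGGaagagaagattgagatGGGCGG
Atm: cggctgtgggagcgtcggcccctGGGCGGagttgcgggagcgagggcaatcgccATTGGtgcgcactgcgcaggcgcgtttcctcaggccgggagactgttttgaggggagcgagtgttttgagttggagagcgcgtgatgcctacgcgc
Pms2: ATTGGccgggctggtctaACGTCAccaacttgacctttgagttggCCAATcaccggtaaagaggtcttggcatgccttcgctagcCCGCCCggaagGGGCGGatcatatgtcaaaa
The Parp2 stretch of 73 bases holds none of these motifs, but a GC box and an E-box were in the 250 bases before its start. Xrcc3, Atm and Pms2 each hold at least 1 CCAAT box and 1 GC box, and Pms2 also holds TGACGT on the other strand. In Xrcc3 a pair of CCAAT boxes on opposite strands lies end to end, and no 2 motifs share a base. In the comparison that follows, members were counted by gene, with a match in any entry of the gene. The background was counted by promoter entry, so the shares have unlike units. It also holds all entries, whether or not the gene was expressed in these cells, and no enrichment was tested. In the 250 bases before the start, the CCAAT box was in 19 of the 39 members with an entry (48.7%), against 33.8% of all 32851 promoter entries. The GC box was in 24 (61.5%), against 32.7%, TGACGT was in 6 (15.4%), against 6.47%, and the E-box was in 8 (20.5%), against 6.02%. The E2F letters TTCCCGCC were in 1 (2.56%, Fancm), against 1.86%. A match of letters is a description and not a bound site.

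The largest change among the members was in the complex of Mre11, Rad50 and Nbs1, which holds broken DNA ends together and brings ATM to them. Rad50, the ATPase of the complex (chr11:53649519-53707319, GRCm38, − strand), had 0.732, 1.27 and 1.82 FPKM in L-OHP+FUC, against 5.79, 5.23 and 6.07 FPKM in L-OHP. Every L-OHP+FUC library was far below every L-OHP library, with replicate 3 the nearest. Rad50 fell by 1.58 on the log2 scale (SE 0.18, limma adjusted p = 0.00436), and the ratio of the group means was 0.224. Nbn, which encodes Nbs1 and recruits ATM (chr4:15957925-15992589), had 2.67, 3.67 and 4.73 FPKM in L-OHP+FUC, against 8.46, 7.88 and 9.86 FPKM in L-OHP. Here too the groups were well apart. Nbn fell by 1.07 on the log2 scale (SE 0.17, limma adjusted p = 0.00981). Mre11a, the nuclease of the complex, had 2.62, 2.68 and 2.98 FPKM in L-OHP+FUC, against 3.23, 2.90 and 3.05 FPKM in L-OHP. These groups overlapped, and the log2 difference was −0.11 (95% interval −0.32 to 0.10, limma adjusted p = 0.384).

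Within a library, the FPKM of Rad50 was 0.280, 0.473 and 0.612 times that of Mre11a in L-OHP+FUC, against 1.79, 1.80 and 1.99 times in L-OHP. A ratio within a library does not move with a factor that scales a whole library. Per length, Rad50 was below Mre11a in all 3 L-OHP+FUC libraries and above it in all 3 L-OHP libraries. Nbn over Mre11a was 1.02, 1.37 and 1.59 in L-OHP+FUC, against 2.62, 2.72 and 3.23 in L-OHP. For both ratios the groups did not overlap, and an exact two-sided permutation test gave p = 0.1, which is the smallest that 3 libraries against 3 allow. Adjusted over the 10 ratios computed between partner genes this p was 0.125. Rad50 also stood lower against Nbn, at 0.274, 0.345 and 0.385 in L-OHP+FUC and 0.685, 0.663 and 0.616 in L-OHP, with the same exact p of 0.1.

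**Figure D2:**
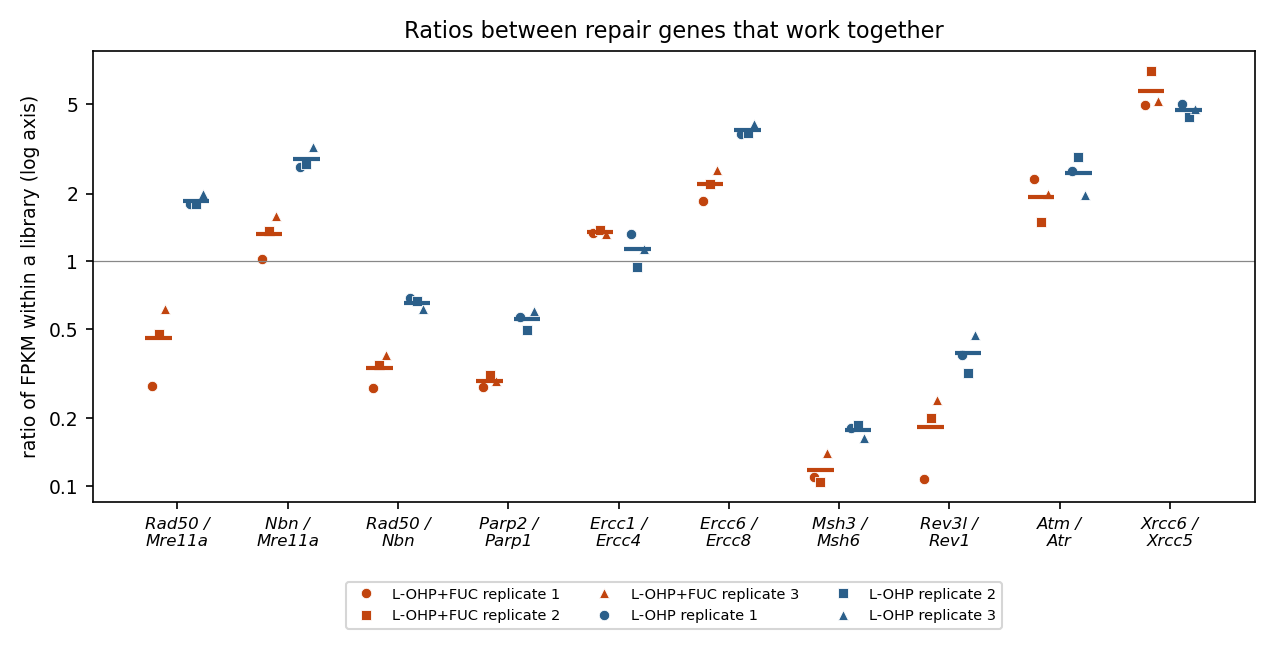
Ratio of FPKM between partner genes in each library (log axis), with L-OHP+FUC in orange left of L-OHP in blue and a bar at each group's mean. The groups are apart in 8 of the 10 ratios, most widely for Rad50 over Mre11a, and overlap for Atm over Atr and for Xrcc6 over Xrcc5. The share over all gene pairs was not computed, so this count is a description. Among single tested genes 16.1% were higher and 30.9% lower without overlap. Msh3, in one of the ratios, reached the expression filter through L-OHP libraries alone.

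Among the other recombination genes, Xrcc3, which acts in strand exchange, had 1.35, 2.33 and 2.06 FPKM in L-OHP+FUC, against 3.29, 3.08 and 3.74 FPKM in L-OHP. The groups were apart, with the lowest L-OHP+FUC value in replicate 1. Xrcc3 fell by 0.60 on the log2 scale (SE 0.15, limma adjusted p = 0.0287). That call was lost without L-OHP replicate 1 (limma adjusted p = 0.0782) or 3 (0.0775), without L-OHP+FUC replicate 1 (0.064) or 3 (0.0504), with quantile normalization (0.0793), with no filter (0.0748) and with the replicate block added to the GC and length correction (0.0516). Blm, the helicase of Bloom syndrome that takes recombination intermediates apart, had 0.244, 0.280 and 0.362 FPKM in L-OHP+FUC, against 0.637, 0.519 and 0.617 FPKM in L-OHP. Blm reached the filter through L-OHP libraries alone, so its lower value was in part a condition of being tested and is given as a description. The groups did not overlap, though the log2 difference of −0.30 missed the threshold (95% interval −0.52 to −0.07, limma adjusted p = 0.0569). Xrcc2, a further strand exchange gene, had 0.604 to 0.717 FPKM in L-OHP+FUC and 0.551 to 0.620 FPKM in L-OHP, and the log2 difference was 0.07 (95% interval −0.14 to 0.28). In all, 3 of the 6 tested recombination genes fell (50%) and none rose, against 19.3% lower and 7.67% higher over all tested genes. With so few genes in a role, this count and those of the other roles below are descriptions beside the same shares.

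Nucleotide excision repair, the main route for crosslinks within a strand, had 8 tested genes. Of these, 1 rose and 1 fell (12.5% each, against 7.67% and 19.3% of all tested genes) and 6 did not pass. The median log2 difference was −0.03. Ddb1, the adaptor that joins damage sensors to a cullin ubiquitin ligase, had 48.0, 46.7 and 43.2 FPKM in L-OHP+FUC, against 34.9, 31.5 and 33.6 FPKM in L-OHP. All 3 L-OHP+FUC libraries were above all L-OHP libraries. Ddb1 rose by 0.45 on the log2 scale (SE 0.09, limma adjusted p = 0.0137), to a mean of 46.0 ± 2.48 FPKM in L-OHP+FUC, against 33.3 ± 1.73 FPKM in L-OHP (SD, n = 3 each). The adjusted p was 0.055 without L-OHP+FUC replicate 1 and 0.0628 without its replicate 2. Ddb1 was the highest of the 47 members per length in every library, and it serves many cullin ligases beyond repair.

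Ercc6, the ATPase that starts repair where RNA polymerase has stalled, moved the other way. It had 1.03, 1.15 and 1.46 FPKM in L-OHP+FUC, against 2.36, 2.06 and 2.81 FPKM in L-OHP. The groups were apart. Ercc6 fell by 0.62 on the log2 scale (SE 0.12, limma adjusted p = 0.0156), but the log2 difference was −0.30 after correction for GC content and length (limma adjusted p = 0.0524). Left-out libraries also ended the call, with limma adjusted p of 0.0517 without L-OHP replicate 1, 0.0581 without L-OHP+FUC replicate 1 and 0.0611 without L-OHP+FUC replicate 2. Its partner in the same step, Ercc8, had 0.554, 0.523 and 0.570 FPKM in L-OHP+FUC, against 0.641, 0.555 and 0.685 FPKM in L-OHP, and these groups overlapped. The log2 difference of Ercc8 was −0.07 (95% interval −0.28 to 0.14), and Ercc6 over Ercc8 was 1.85, 2.20 and 2.56 in L-OHP+FUC, against 3.68, 3.72 and 4.09 in L-OHP (exact two-sided permutation p = 0.1, the smallest possible).

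The later steps of excision showed smaller differences. Ercc1, which cuts the damaged strand together with Ercc4, had 4.39, 4.32 and 3.96 FPKM in L-OHP+FUC, against 3.65, 3.17 and 3.60 FPKM in L-OHP. These groups did not overlap, and the log2 difference of 0.23 had a 95% interval of 0.01 to 0.44 and a limma adjusted p of 0.109. It passed with quantile normalization (limma adjusted p = 0.0260) and median ratio rescaling (0.0436). Ercc4 had 2.98 to 3.29 FPKM in L-OHP+FUC and 2.76 to 3.35 FPKM in L-OHP, with a log2 difference of 0.02 (95% interval −0.21 to 0.25). Xpa, which checks the lesion before the cut, had 3.39, 2.93 and 3.76 FPKM in L-OHP+FUC, against 4.04, 4.26 and 5.14 FPKM in L-OHP. Its groups were apart, and the log2 difference was −0.33 (95% interval −0.61 to −0.05, limma adjusted p = 0.0823). The helicases of the transcription factor TFIIH, Ercc2 and Ercc3, which open the helix, had log2 differences of −0.16 (95% interval −0.42 to 0.10) and 0.08 (95% interval −0.11 to 0.28), and the groups overlapped for both.

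Of the genes for base excision, single-strand breaks and ligation, 1 of 5 fell (20%, against 19.3% of all tested genes). The other 4 did not pass. Parp2, which marks broken DNA with chains of ADP-ribose, had 4.27, 5.09 and 4.78 FPKM in L-OHP+FUC, against 8.39, 7.06 and 9.97 FPKM in L-OHP. The L-OHP+FUC libraries lay close together and below all L-OHP libraries. Parp2 fell by 0.72 on the log2 scale (SE 0.13, limma adjusted p = 0.0125). Parp1, the more abundant enzyme of the same kind, had 15.5, 16.2 and 16.3 FPKM in L-OHP+FUC, against 14.8, 14.2 and 16.6 FPKM in L-OHP. Those groups overlapped, and the log2 difference was 0.07 (95% interval −0.14 to 0.28, limma adjusted p = 0.570). Parp2 over Parp1 was 0.276, 0.313 and 0.293 in L-OHP+FUC, against 0.568, 0.497 and 0.600 in L-OHP (exact two-sided permutation p = 0.1, the smallest possible). Xrcc1, the scaffold that gathers single-strand break repair, and the DNA ligases Lig1 and Lig3 had log2 differences of 0.11 (95% interval −0.14 to 0.36), −0.02 (−0.25 to 0.21) and 0.11 (−0.18 to 0.41).

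Mismatch repair proteins recognise mispaired bases, and 3 mismatch members were tested. Of these, Msh3 reached the filter through L-OHP libraries alone, so that its lower value was built into its being tested. Msh6, which finds mispaired bases, had 2.36, 2.60 and 2.51 FPKM in L-OHP+FUC, against 3.25, 3.35 and 3.94 FPKM in L-OHP. Msh3, which finds larger loops, had 0.260, 0.272 and 0.352 FPKM in L-OHP+FUC, against 0.589, 0.629 and 0.643 FPKM in L-OHP. Pms2, which nicks the strand, had 0.530, 0.620 and 0.503 FPKM in L-OHP+FUC, against 1.07, 0.981 and 1.03 FPKM in L-OHP. The groups were apart in each. Pms2 fell by 0.39 (SE 0.09, limma adjusted p = 0.0230) and Msh6 by 0.37 (SE 0.10, 0.0343) on the log2 scale, and the difference of Msh3, given as a description, was −0.32 (SE 0.09, 0.0390). None of the 3 kept the call after correction for GC content and length, where the log2 differences were −0.18 for Pms2 (limma adjusted p = 0.205), −0.26 for Msh6 (0.0646) and −0.16 for Msh3 (0.192). Msh3 lost the call whichever library was left out (limma adjusted p = 0.0563 to 0.120), and Msh6 and Pms2 lost it for any library but L-OHP replicate 2 (0.0668 to 0.107 for Msh6 and 0.0542 to 0.0785 for Pms2). Both also lost it with no filter (0.0730 for Msh6 and 0.0524 for Pms2) and with quantile normalization (0.237 and 0.214), Msh3 with quantile normalization (0.451), and Msh6 and Msh3 with median ratio rescaling (0.0727 and 0.0550).

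Genes that unhook crosslinks between strands gave no call among the 3 tested. Slx4, the scaffold of the unhooking nucleases, had 1.21, 1.48 and 1.71 FPKM in L-OHP+FUC, against 2.46, 1.90 and 2.29 FPKM in L-OHP. Fan1, a nuclease of the same step, had 0.311, 0.468 and 0.418 FPKM in L-OHP+FUC, against 0.965, 0.590 and 0.703 FPKM in L-OHP. Both had groups that did not overlap, with log2 differences of −0.38 (95% interval −0.67 to −0.10, limma adjusted p = 0.0537) and −0.32 (−0.60 to −0.05, 0.0809). Fan1 reached the filter through L-OHP libraries alone, so its lower value was in part a condition of being tested and is given as a description. Slx4 passed without L-OHP replicate 2 (limma adjusted p = 0.0421). Fancl, the ubiquitin ligase of the Fanconi core complex, had 1.22, 1.69 and 1.55 FPKM in L-OHP+FUC, against 1.52, 1.11 and 1.54 FPKM in L-OHP. Its groups overlapped, and the log2 difference was 0.06 (95% interval −0.24 to 0.35). It was 0.30 after correction for GC content and length (limma adjusted p = 0.0726) and 0.38 after GC correction alone, where Fancl passed (limma adjusted p = 0.0398).

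Of the 4 translesion genes 2 fell (50%, against 19.3% of all tested genes). Rev3l, the catalytic subunit of polymerase zeta that extends past a lesion, had 0.208, 0.392 and 0.650 FPKM in L-OHP+FUC, against 1.36, 0.961 and 1.70 FPKM in L-OHP. Rev1, the polymerase that also holds the other bypass polymerases in place, had 1.93, 1.95 and 2.69 FPKM in L-OHP+FUC, against 3.55, 3.00 and 3.62 FPKM in L-OHP. For both genes the groups were apart, with L-OHP+FUC replicate 3 the nearest to L-OHP. Rev3l fell by 0.72 (SE 0.17, limma adjusted p = 0.0222) and Rev1 by 0.47 (SE 0.13, 0.0358) on the log2 scale. After correction for GC content and length the log2 differences were −0.22 for Rev3l (limma adjusted p = 0.179) and −0.32 for Rev1 (0.0632). With no filter neither passed (0.0618 for Rev3l and 0.0857 for Rev1), nor did Rev1 with median ratio rescaling (0.0568) or quantile normalization (0.128). Both calls were also lost without L-OHP replicate 1 or 3 or L-OHP+FUC replicate 1 or 2 (limma adjusted p = 0.0572 to 0.0748 for Rev3l and 0.0922 to 0.119 for Rev1).

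Rev1 shares 26.6% of its exon bases with Eif5b on the opposite strand, and whether reads were counted by strand is not given in the sources used here. Eif5b, a translation initiation factor, had 2.15, 3.69 and 5.44 FPKM in L-OHP+FUC, against 15.3, 15.1 and 16.6 FPKM in L-OHP, and it fell by 1.87 on the log2 scale (limma adjusted p = 0.00583). Without counting by strand, reads of the pair could not be told apart in the shared bases, so the value of Rev1 is uncertain. Polh, the polymerase that copies past platinum crosslinks, had 0.679, 1.01 and 0.879 FPKM in L-OHP+FUC, against 1.23, 1.06 and 1.40 FPKM in L-OHP. The groups did not overlap, and the log2 difference was −0.27 (95% interval −0.53 to 0.00, limma adjusted p = 0.122). Rad18, the ubiquitin ligase that calls bypass polymerases to a stalled fork, had 0.517 to 0.678 FPKM in L-OHP+FUC and 0.562 to 0.747 FPKM in L-OHP, with a log2 difference of −0.03 (95% interval −0.27 to 0.20).

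Atm, the kinase that answers double-strand breaks, had 0.897, 0.851 and 1.57 FPKM in L-OHP+FUC, against 2.39, 2.55 and 2.54 FPKM in L-OHP. The L-OHP libraries lay close together, and all L-OHP+FUC libraries were below them. Atm fell by 0.74 on the log2 scale (SE 0.14, limma adjusted p = 0.0142), with limma adjusted p of 0.0543 and 0.0559 without L-OHP+FUC replicates 1 and 2. After correction for GC content and length the log2 difference was −0.28 (limma adjusted p = 0.0820). Atr, the kinase that answers stalled forks, had 0.386, 0.569 and 0.787 FPKM in L-OHP+FUC, against 0.946, 0.872 and 1.29 FPKM in L-OHP. Its groups were apart but the log2 difference of −0.37 did not pass (95% interval −0.69 to −0.05, limma adjusted p = 0.0859), and it was 0.10 after the correction. Atm over Atr overlapped between the groups, at 2.32, 1.50 and 1.99 in L-OHP+FUC and 2.53, 2.92 and 1.96 in L-OHP. Chek2, the kinase that Atm activates, had 2.59, 3.13 and 2.24 FPKM in L-OHP+FUC, against 3.92, 2.76 and 4.60 FPKM in L-OHP. The groups overlapped through L-OHP replicate 2. The log2 difference was −0.37 (95% interval −0.77 to 0.03, limma adjusted p = 0.147), and without that library the limma adjusted p was 0.0379.

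Neither of the 2 tested end joining genes passed. Xrcc6, the Ku70 subunit that caps broken ends, had 2.10, 2.05 and 2.09 FPKM in L-OHP+FUC, against 2.14, 1.49 and 1.74 FPKM in L-OHP. The groups overlapped through L-OHP replicate 1, and the log2 difference was 0.15 (95% interval −0.11 to 0.41, limma adjusted p = 0.345), and it passed with quantile normalization (0.37, limma adjusted p = 0.0498). Trp53bp1, which shields ends from resection, had 0.483, 0.482 and 1.51 FPKM in L-OHP+FUC, against 1.07, 1.07 and 2.47 FPKM in L-OHP. Replicate 3 was the highest of each group, and the groups overlapped. The log2 difference of Trp53bp1 was −0.48 (95% interval −1.15 to 0.20, limma adjusted p = 0.245), and 15.0% of its exon bases are shared with Tubgcp4 on the opposite strand.

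**Figure D3:**
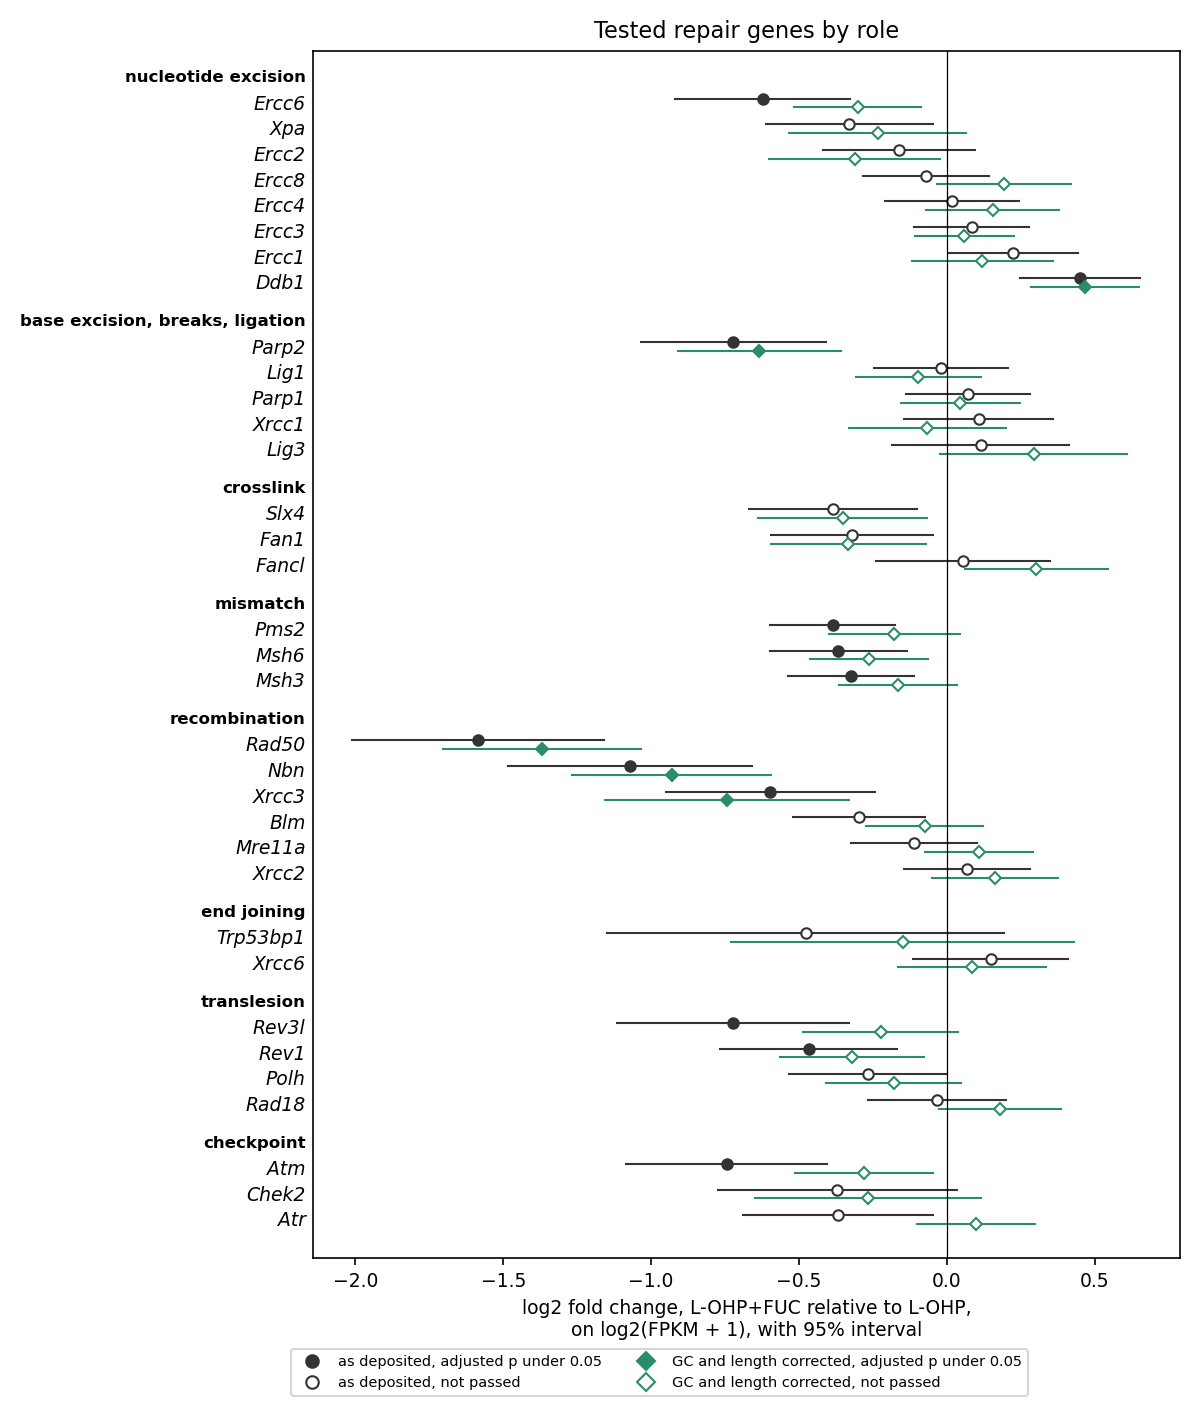
Log2 fold change of L-OHP+FUC relative to L-OHP on log2(FPKM + 1), with 95% intervals, for the 34 tested members by role, as deposited (black) and after correction for GC content and length (green). Filled points passed an adjusted p of 0.05, and 12 are filled as deposited against 5 after the correction.

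GC content moved with the result. Across the 34 tested members the Spearman correlation of GC content with the log2 fold change was 0.42, and across 12074 tested genes with a GC content it was 0.36. These are descriptions across genes that share the same 6 libraries. Of the 8 tested members under 45% GC, 3 fell, with a median log2 fold change of −0.33, while the median of all genes in that class was −0.30 and 30.8% of them were lower. Among the 14 members of 45% to 50% GC, 7 fell, with a median of −0.37 against −0.15 over all genes of the class, of which 21.7% were lower. Of the 12 members with 50% GC or more, 1 rose and 1 fell, with a median of 0.03, which was also the median over all genes of that class. Longer transcripts went with lower values among the members, with a Spearman correlation of −0.29, against −0.06 over all genes.

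After both trends were removed from each library, 1 tested member rose and 4 fell, which is 2.94% and 11.8% of 34, while 11.5% of all genes were higher and 11.9% lower. The 5 that passed, of which Xrcc3 did not with the replicate block added, were Ddb1 at 0.47 (limma adjusted p = 0.0105), Rad50 at −1.37 (0.00415), Nbn at −0.93 (0.00874), Xrcc3 at −0.74 (0.0263) and Parp2 at −0.63 (0.0134) on the log2 scale. The 7 that did not pass were Ercc6, Pms2, Msh6, Msh3, Rev3l, Rev1 and Atm, and no other member came in. After GC correction alone Ercc6 (limma adjusted p = 0.0230), Rev3l (0.0401) and Atm (0.0261) still passed, while Pms2, Msh6, Msh3 and Rev1 did not. After length correction alone only Atm of the 7 passed (limma adjusted p = 0.0441). By role, the median log2 fold change was −0.37 as deposited and −0.18 corrected for mismatch repair, −0.37 and −0.20 for translesion synthesis, −0.45 and −0.41 for recombination, and −0.03 and 0.09 for nucleotide excision repair. It was −0.32 and −0.33 for crosslink repair, 0.07 and −0.07 for base excision and ligation, −0.37 and −0.27 for the checkpoint and −0.16 and −0.03 for end joining. With 3 tested genes, the crosslink median is the value of Fan1. Fan1, like Msh3 in mismatch repair and Blm in recombination, reached the filter through L-OHP libraries alone. The lower medians of these roles were thus in part a condition of being tested and are given as descriptions. Rad50, Nbn and Parp2 were the 3 members called whichever library was left out (limma adjusted p up to 0.0260, 0.0413 and 0.0497). These 3 genes share no exon bases with another annotated gene. Apart from Rev1, the called members share at most 5.12% of their exon bases with another gene, in Ddb1 with Tkfc, but among the others Lig3 shares 25.1% with Rffl, Ercc2 24.6% with Gm26852 and Fancl 13.7% with Vrk2, all on the opposite strand, so those values are uncertain.

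**Figure D4:**
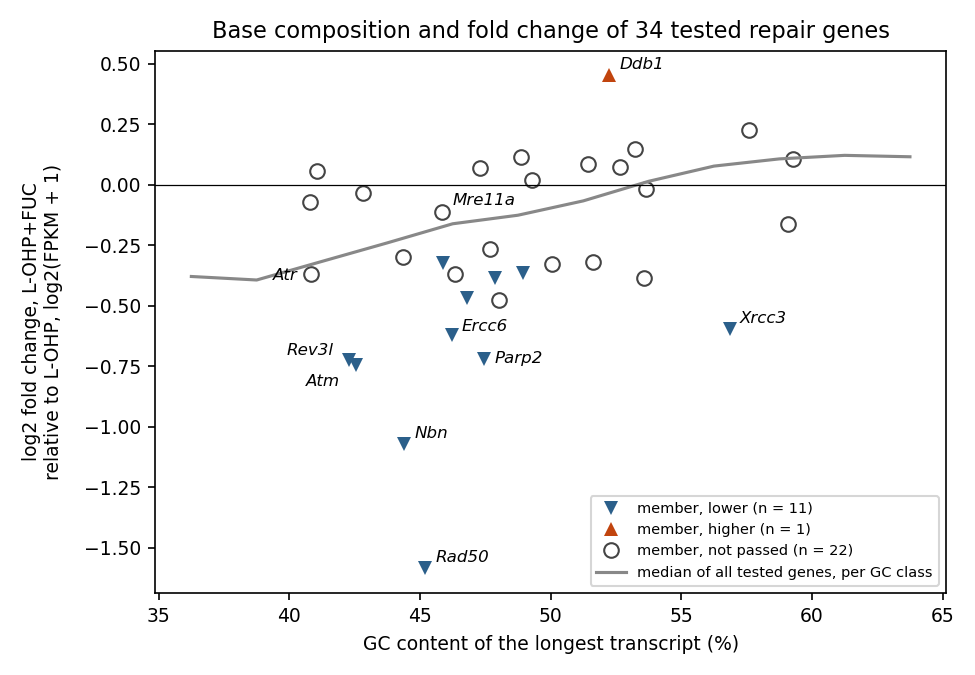
GC content of the longest transcript (%) against the log2 fold change of L-OHP+FUC relative to L-OHP for the 34 tested members, with a grey line at the median of all tested genes per GC class. Triangles are members past the threshold, 11 lower and 1 higher, and Rad50 and Nbn lie furthest below the line.

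The 13 members below the expression filter were lower in the mean of L-OHP+FUC in 12 cases and higher in 1. The share of all genes below the filter with a lower mean was not computed, so this count is a description. Over the whole table, genes listed at 0 numbered 36343 to 36744 per library in L-OHP+FUC and 35234 to 35354 in L-OHP. The groups of these 13 members did not overlap for 6 that were lower and 1 that was higher, and overlapped for 6. Of the 12744 genes below the filter with a value above 0 in any library, a set that also holds genes listed at 0 in several, 11.7% were lower and 2.5% higher without overlap. Brca2, a central recombination gene, had 0.0575, 0.122 and 0.144 FPKM in L-OHP+FUC, against 0.320, 0.256 and 0.394 FPKM in L-OHP. Fancm, the translocase that brings the Fanconi core complex to DNA, had 0.158, 0.169 and 0.208 FPKM in L-OHP+FUC, against 0.385, 0.358 and 0.371 FPKM in L-OHP. In both the groups were apart. Fitted with no filter, when 6.12% of 24828 genes were lower and 2.26% higher, Brca2 fell by 0.26 (limma adjusted p = 0.0473) and Fancm by 0.22 (limma adjusted p = 0.0342) on the log2 scale, which at such levels understates the ratio of the means, 0.333 and 0.480. Brca1, which acts ahead of Brca2, had 0.101, 0.137 and 0.173 FPKM in L-OHP+FUC, against 0.303, 0.211 and 0.394 FPKM in L-OHP, and Exo1, the nuclease that resects nicked strands, had 0.0488, 0.0597 and 0.0291 FPKM in L-OHP+FUC, against 0.155, 0.0900 and 0.140 FPKM in L-OHP. Neither passed without the filter (limma adjusted p = 0.115 and 0.0792).

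Ddb2, the damage sensor that binds Ddb1, had 0.225, 0.298 and 0.397 FPKM in L-OHP+FUC, against 1.31, 0.406 and 1.41 FPKM in L-OHP. L-OHP replicate 2 was barely above the highest L-OHP+FUC library. Without the filter the log2 difference of Ddb2 was −0.61 (limma adjusted p = 0.161), and 23.8% of its exon bases are shared with Acp2 on the opposite strand, a gene at a mean of 96.3 FPKM. Fanca, of the Fanconi core complex, had 0.459, 0.360 and 0.366 FPKM in L-OHP+FUC, against 0.765, 0.886 and 0.469 FPKM in L-OHP, so its groups were only just apart. Rad51c, a recombination gene, had 0.0365, 0.0291 and 0.0343 FPKM in L-OHP+FUC, against 0.0122 and 0.0277 FPKM in L-OHP replicates 2 and 3, and was listed at 0 in L-OHP replicate 1. The other 6, namely the Fanconi genes Fancc, Fancd2 and Fanci, the recombination gene Rad51ap1, the Ku80 gene Xrcc5 and the checkpoint kinase gene Chek1, lay between 0.0327 and 0.451 FPKM in every library, and their groups overlapped.

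**Figure D5:**
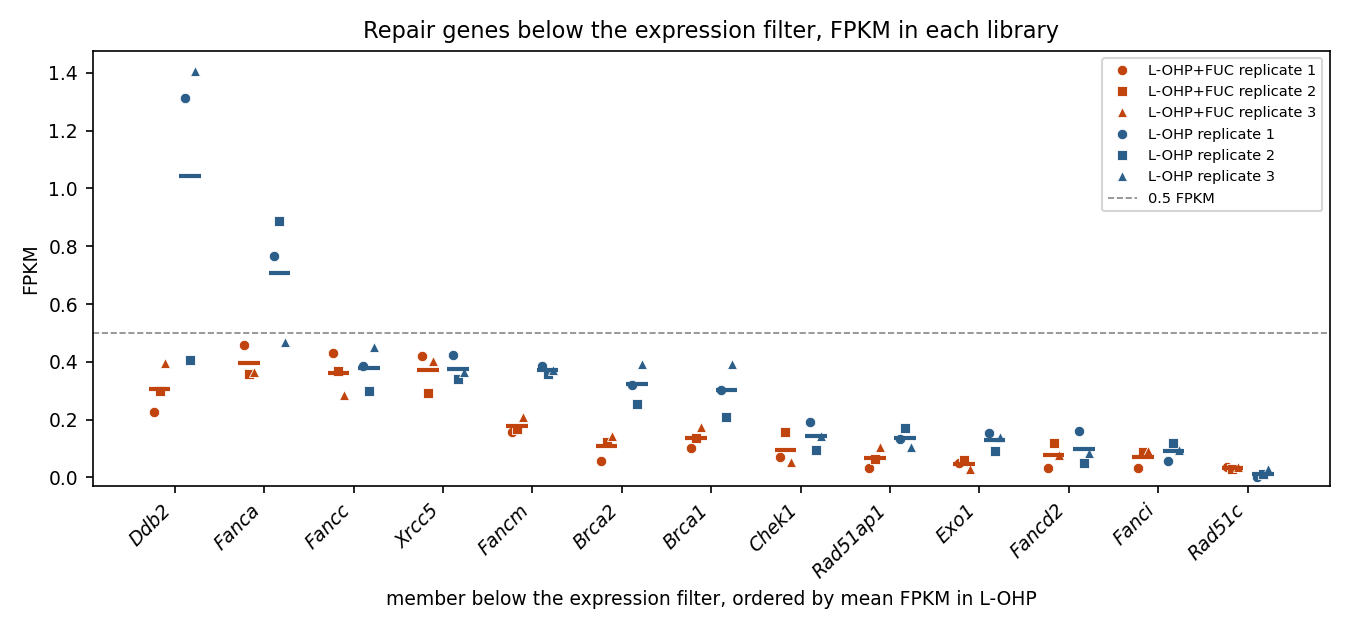
FPKM in each library of the 13 members below the expression filter, ordered by the mean in L-OHP, with L-OHP+FUC in orange left of L-OHP in blue, a bar at each mean and a dashed line at 0.5 FPKM. Ddb2 and Fanca are the 2 members with L-OHP libraries above the line, and all L-OHP+FUC libraries are under it.

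The authors' deposited table gave a q under 0.05 to 1 of the 47 members on the higher side (Ddb1) and 13 on the lower side, against 2.22% and 3.17% of all 55401 genes. Of these 55401 rows, 35234 to 36744 were listed at 0 in each library, so those shares are no like background for expressed genes. Over the tested genes, a nearer background, the authors' deposited table had 9.93% higher and 12.9% lower at that q. The 13 members on the lower side include the untested ones named below. Its q was under 0.05 for 9 of the 12 members called here, with the same sign, and the direction was the same as in limma for all 34 tested members. Both directions come from the FPKM of the same 6 libraries, so their match was nearly fixed in advance and is no separate support. The authors' deposited table gave Rad50 a log2 ratio of −2.16 (q = 1.07e-10) and Nbn −1.24 (q = 8.93e-05). Untested members under that q in the authors' deposited table were Ddb2 (q = 0.0136), Fancm (q = 0.0464) and Brca2 (q = 0.00589). Tested members under it that did not pass with limma were Atr (q = 0.0331) and Blm (q = 0.04998), both lower.

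Other genes of the same pathways were taken from lists by role, of which 133 of 134 symbols were in the table and 115 were tested. Of these 4 were higher and 25 lower, with a median log2 fold change of −0.15, and after the correction for GC content and length 6 were higher and 15 lower. The lower share was 21.7% against 19.3% of all tested genes, and 13% against 11.9% after the correction, so it lay near the share of all genes. Uvssa, which works with Ercc6 at stalled RNA polymerase, averaged 0.316 ± 0.110 FPKM in L-OHP+FUC and 1.92 ± 0.30 FPKM in L-OHP (SD, n = 3 each). Uvssa reached the filter through L-OHP libraries alone, so its lower value (−1.15 on the log2 scale) was a condition of its being tested and is given as a description. Dclre1c, the end joining nuclease Artemis, averaged 2.09 ± 0.649 FPKM in L-OHP+FUC and 5.73 ± 0.207 FPKM in L-OHP (SD, n = 3 each), and fell by 1.14 on the log2 scale (limma adjusted p = 0.00635). Rfc1, the large subunit of the clamp loader, averaged 2.78 ± 0.737 FPKM in L-OHP+FUC and 6.51 ± 0.881 FPKM in L-OHP (SD, n = 3 each), and fell by 1.00 (limma adjusted p = 0.0103). Dclre1c and Rfc1 kept the call after the correction, at −0.68 and −0.83 on the log2 scale, and without any one library.

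By role the lower share of the other genes ran between 16.7% and 25%, against 19.3% of all tested genes, and these counts are descriptions. In nucleotide excision repair 2 of 20 were higher, among them Rad23b (0.32, limma adjusted p = 0.0273), a partner of the damage sensor Xpc, and 4 were lower, among them the nuclease gene Ercc5 (−0.58, 0.0230). In base excision 4 of 17 were lower, among them the glycosylase gene Mbd4 (−0.69), which reached the filter through L-OHP libraries alone, and Tdp2 (−0.59, limma adjusted p = 0.0144), which frees ends from topoisomerase. Of 17 further crosslink genes 1 was higher, the Fanconi core gene Faap20 (0.42, limma adjusted p = 0.0164), and 4 were lower, among them the fork remodeller gene Hltf (−0.78, 0.0137). Recombination had 3 of 12 lower, none of which passed after the correction, mismatch repair 3 of 12, end joining 2 of 12 and translesion synthesis 2 of 8, among them the bypass polymerase gene Polk (−0.74, limma adjusted p = 0.0146). Of 17 other checkpoint genes 1 was higher, H2ax (0.50, limma adjusted p = 0.0223), the histone that is phosphorylated beside breaks, and 3 were lower, among them Topbp1 (−0.70, 0.0161), an activator of Atr. Leaving Mbd4 aside, each of these genes kept its call after the correction, and each lost the call without 1 or more of the libraries, with limma adjusted p up to 0.0922.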

How the data were processed

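Ribosomal RNA was removed from total RNA before sequencing, per the labels' protocols. Per the file headers, the authors gave each gene an FPKM in each library, where 0.0001 stood for 0 and was set back to 0 here. Per the file headers, the authors also deposited a fold (the ratio of mean FPKM, L-OHP+FUC over L-OHP), the log2 of this ratio, and, beside it, one p-value and one q-value for each gene. HISAT2, StringTie, DESeq2, limma, bcl2fastq 2.0 and mm10 are named in the submitters' processing notes, while annotation, counting and strand were not given in the sources used.

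Genes with at least 0.5 FPKM in 3 of 6 libraries were tested with limma 3.58.1 (R 4.3.3) on log2(FPKM + 1), with intensity trend, two-sided and adjusted by Benjamini-Hochberg over 12084 genes. This scale understates changes of low genes. Libraries were compared first, and no 2 were identical. For the GC and length correction, each library's deviations from the gene means were fitted by loess (span 0.3) and the trend was removed. Coordinates, GC content, transcript length and exon overlaps came from GENCODE M21, matched for 99.53% of rows, and promoters from RefSeq's GRCm38.p6 table. Where a symbol named several rows, the highest mean was used. Any member could be named, and of each wider list the 3 genes with the smallest p. The members and lists were chosen with earlier results of these data known. The fits were tried on simulated data.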

Additional observations from a re-analysis of the deposited data

How the results depend on the processing

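Members higher in L-OHP+FUC numbered 1 as reported, 2 after median ratio rescaling, 3 after quantile normalization, 2 after GC correction alone (Ddb1 and Fancl), 0 at a threshold of 0.01, and 0 to 1 when a library was left out (0 without L-OHP+FUC replicate 1 or 2). Members lower numbered 11 as reported, 2 with a mean of at least 5 FPKM, where fewer genes were tested, 6 after quantile normalization, 4 after GC and length correction, 3 with the replicate block added to it, 7 after GC correction alone, 5 after length correction alone and 2 at 0.01. With a library left out they numbered 3 (without L-OHP+FUC replicate 1) to 12 (without L-OHP replicate 2), with 4 without L-OHP replicate 1, 5 without L-OHP replicate 3, 4 without L-OHP+FUC replicate 2 and 7 without its replicate 3. GC correction alone and length correction alone were chosen after seeing the data. The cause of these differences was not tested.

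All tested genes higher numbered 927 as reported, 561 with no filter, 1581 after median ratio rescaling, 1565 after quantile normalization, 554 with the replicate block, 1528 after GC correction alone, 1395 after length correction alone, 1436 at a threshold of 0.1, 165 at 0.01, and 266 to 1121 with a library left out. All tested genes lower numbered 2335 as reported, 1520 with no filter, 966 with a mean of at least 5 FPKM, 1359 after quantile normalization, 1437 after GC and length correction, 809 with the replicate block added to it, 1460 after length correction alone, 472 at 0.01, and 835 to 2256 with a library left out.

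Libraries with the same replicate number did not deviate together (correlations of −0.037, −0.071 and 0.083 over the tested genes, and −0.152 to 0.161 for different numbers), so the numbers give no pairing. With the replicate block 1 member was higher and 9 were lower, since Msh3, Msh6 and Pms2 did not pass and Trp53bp1 did (adjusted p = 0.0352 by limma), and not every library correlated best with its own number.

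Signs that turned were all of members that did not pass as reported. The log2 fold change of Ercc4 was −0.042 without L-OHP replicate 1 and −0.0085 without L-OHP+FUC replicate 1, and −0.042 to 0.064 with a library left out. That of Ercc8 was 0.14 after quantile normalization, 0.19 after GC and length correction, also with the block, and 0.26 after GC correction alone. Xrcc1 gave −0.066 after GC and length correction, also with the block. Lig1 gave 0.059 after median ratio rescaling, 0.22 after quantile normalization, 0.022 after length correction alone, and 0.0072 and 0.018 without L-OHP replicate 3 and L-OHP+FUC replicate 3, with a range of −0.067 to 0.018 when a library was left out. Fancl gave −0.032 without L-OHP replicate 2 and −0.003 without L-OHP+FUC replicate 2. Mre11a gave 0.10 after quantile normalization, 0.11 after GC and length correction, also with the block, 0.070 after GC correction alone and 0.069 after length correction alone. Rad18 gave 0.015 after median ratio rescaling, 0.18 after quantile normalization and after GC and length correction, also with the block, 0.23 after GC correction alone, 0.028 after length correction alone, and 0.012 and 0.0058 without L-OHP replicate 3 and L-OHP+FUC replicate 1, with a range of −0.068 to 0.012 when a library was left out. Atr gave 0.10 after GC and length correction, also with the block.

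With 3 libraries a group and no counts, the depth behind a low gene is unknown, and a member under about 1 FPKM that did not pass is not shown to be alike in both groups.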

Other observations

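Targets of p53, the transcription factor that ATM and ATR activate after DNA damage, were set beside the repair genes. Of 21 listed, 18 were tested, 6 fell and none rose (limma, adjusted p under 0.05), with a median log2 fold change of −0.33, against −0.10 over all tested genes, of which 19.3% fell and 7.67% rose. After correction for GC content and length 7 fell (38.9%) and 1 rose (5.56%), against 11.9% and 11.5% of all tested genes. The median was then −0.19. Mdm2, the ubiquitin ligase that holds p53 down, averaged 19.5 ± 2.49 FPKM in L-OHP+FUC and 35.7 ± 2.91 FPKM in L-OHP (SD, n = 3 each). The groups did not overlap, and Mdm2 fell by 0.84 on the log2 scale (limma adjusted p = 0.00695). Trp53inp1, a cofactor of p53, averaged 4.87 ± 1.14 FPKM in L-OHP+FUC and 12.9 ± 2.81 FPKM in L-OHP and fell by 1.24 (limma adjusted p = 0.00847). Sesn1, a stress-induced inhibitor of growth signalling, averaged 6.87 ± 1.03 FPKM in L-OHP+FUC and 13.9 ± 3.53 FPKM in L-OHP and fell by 0.91 (limma adjusted p = 0.0175, up to 0.0638 without L-OHP replicate 1 or L-OHP+FUC replicate 1 or 2). Summed over the list, the targets had 389 to 417 FPKM in L-OHP+FUC and 442 to 525 FPKM in L-OHP.

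Of 30 cell cycle genes, which accompany repair in dividing cells, 18 were tested. Of these, 1 fell (5.56%) and none rose, against 19.3% and 7.67% of all tested genes. The one was Mki67, a marker of dividing cells, at 0.474 ± 0.285 FPKM in L-OHP+FUC and 3.37 ± 0.495 FPKM in L-OHP (SD, n = 3 each), which fell by 1.58 on the log2 scale (limma adjusted p = 0.00432). Summed over the list, cell cycle genes had 46.4 to 49.7 FPKM in L-OHP+FUC and 48.4 to 55.4 FPKM in L-OHP. The next by p were Mcm7, of the replicative helicase, with a log2 difference of −0.31 (limma adjusted p = 0.0783), and the thymidine kinase gene Tk1, with −0.38 (limma adjusted p = 0.115). The part of cell division in the values of the repair genes was not tested.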
